A study of Homo sapiens with 12 samples.

Results

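NCI-H1975 and HCC827 are 2 established human lung adenocarcinoma cell lines. The differences described here are those between their control cultures, given a solvent or a control siRNA in place of an active agent. The comparison rests on 4 control libraries of the 12 in the series. It covers the 12059 genes that reached 1 FPKM (a fragment count divided by transcript length and library size) in at least 1 of those 4, of 16426 genes with a value for every library. The study treated both lines with a small molecule named 18E or with siRNAs named siDYN and profiled their RNA. Its title names the dynein subunit LIC1, the protein of the gene DYNC1LI1, and autophagy.

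The 4 groups hold 1 library each. In the small molecule experiment the controls were NCI-H1975 cells given DMSO, the solvent, and HCC827 cells given DMSO. In the siRNA experiment they were NCI-H1975 cells given siCON, a control siRNA, and HCC827 cells given siCON. The other 8 libraries are the same lines after 18E at 2.5 or 5 µM for 24 h, or after siDYN-1 or siDYN-2 for 48 h. They were not used to call any gene and serve below as separate libraries in which to look for the same differences. With 1 line of each kind, the 2 pairs repeat the comparison of these 2 lines and not of EGFR-mutant tumours at large. The sources used here do not say whether the DMSO and siCON cultures of a line were grown separately, and p-values measure only the spread between these libraries.

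Both lines carry activating mutations of EGFR, the receptor tyrosine kinase at the head of the ERBB family. Ligands such as amphiregulin and epiregulin bind the receptor, the receptor pairs with itself or another ERBB member, and the signal passes through RAS, RAF, MEK and ERK and through PI3K and AKT. Feedback genes such as DUSP6 and the SPRY genes are switched on by ERK and damp it. NCI-H1975 is known for an activating point mutation together with a gatekeeper mutation that confers resistance to early EGFR inhibitors. HCC827 is known for an in-frame deletion in the kinase domain and for extra copies of the gene.

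The label, lung cancer cells, was checked against markers, and those of simple epithelium were high in both lines. Over the 10 such markers the summed level was 4295 and 6803 FPKM in NCI-H1975 (DMSO and siCON, the order used throughout), against 9173 and 10666 FPKM in HCC827, and no marker was listed at 0. The 8 endothelial and stromal markers summed to 3.12 and 3.71 FPKM in NCI-H1975, against 2.73 and 2.05 FPKM in HCC827. The 6 blood cell markers summed to 40.2 and 58.5 FPKM in NCI-H1975, against 110 and 73.5 FPKM in HCC827, and 4 of the 6 were under 1 FPKM in each library. CD68, a lysosomal protein, made up most of those sums. The 5 neuroendocrine markers summed to 0.36 and 0.35 FPKM in NCI-H1975, against 16.5 and 14.7 FPKM in HCC827, nearly all of it from DDC, a decarboxylase also found outside that cell type. Depth is unknown because the tables hold FPKM and no counts. The FPKM of the shared genes added up to 522567 and 613763 in NCI-H1975, against 486405 and 603623 in HCC827. Libraries of one line correlated across genes at 0.975 for NCI-H1975 and 0.97 for HCC827 on the log2 scale, and the 2 lines at 0.852 in the DMSO pair and 0.889 in the siCON pair.

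Differences between the lines were widespread. All differences below are NCI-H1975 minus HCC827 on the log2(FPKM + 1) scale, which understates the change of genes near 0. They are given as the limma estimate ± its standard error over n = 2 pairs, with the Benjamini-Hochberg adjusted p over all 12059 genes. The error of each gene draws on all genes, since 2 pairs leave 1 residual degree of freedom. At an adjusted p under 0.05, 3626 genes (30.1% of those tested) were higher in NCI-H1975 and 2372 (19.7%) were lower, 49.7% in either direction. The median over all genes was 0.13 (0.08 with equal totals, 0.04 after quantile normalization). In bulk RNA, fewer cells of a type and less RNA per cell cannot be told apart. Without the experiment as a block the counts were 1265 higher and 931 lower. At least a 2-fold difference in both pairs was seen for 1060 genes (8.79%) higher and 788 (6.53%) lower (895 and 911 after quantile normalization), and at least 8-fold for 59 higher and 126 lower. The sign was the same in both pairs for 84.9% of genes. The 2 pairs share the cell lines but no library, and their differences correlated at 0.92 across genes, which are not independent replicates.

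**Figure D1:**
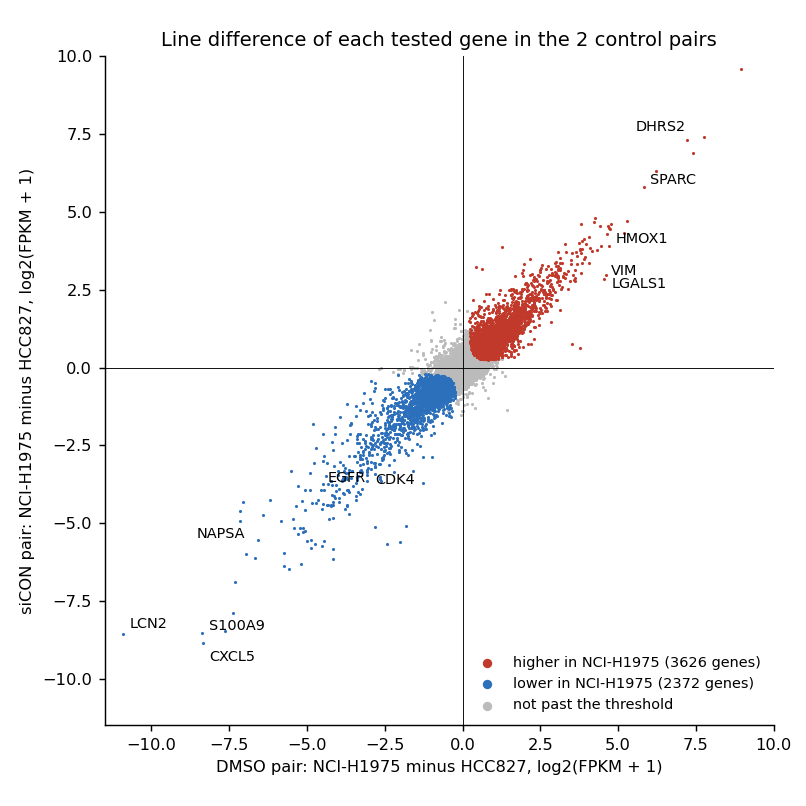
Each point is 1 of the 12059 tested genes, placed by its difference (NCI-H1975 minus HCC827, log2(FPKM + 1)) in the DMSO pair on the x axis and in the siCON pair on the y axis. The 3626 genes higher and the 2372 genes lower in NCI-H1975 at the adjusted p are coloured, and the points lie along the diagonal, with LCN2, CXCL5 and S100A9 at the lower end and DHRS2 at the upper end.

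The treated libraries, none of which entered the calls, gave largely the same genes. Across their 4 pairs 3484 genes (28.9%) were higher in NCI-H1975 and 2380 (19.7%) were lower. The 2862 genes higher in both sets were 78.9% of the control list and 82.1% of the treated list. The 1951 genes lower in both were 82.3% and 82.0% of those lists, and 2 genes were called in opposite directions. Of the genes at least 2-fold apart in both control pairs, 1017 of 1060 higher genes and 779 of 788 lower genes were also called in the treated pairs. Genes that are low in one line passed the expression filter through the other, so shares below refer to the tested members of a list and are read against 30.1% higher and 19.7% lower.

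Among the genes highest in NCI-H1975 relative to HCC827 were a metallothionein, a reductase, cancer-testis antigens and secreted matrix proteins. MT1E, a metal-binding metallothionein, was at 498 and 763 FPKM in NCI-H1975, whereas both HCC827 libraries listed it at 0. DHRS2, a mitochondrial short-chain reductase, was at 450.3 and 632 FPKM in NCI-H1975, against 1.09 and 2.74 FPKM in HCC827 (7.58 ± 0.16, adjusted p = 5.39e-06). CT45A1, an X-linked cancer-testis antigen, was at 167 and 144 FPKM in NCI-H1975, against 0 and 0.22 FPKM in HCC827 (7.14 ± 0.17, adjusted p = 5.96e-06). Each of these was abundant in both NCI-H1975 libraries and near or at 0 in both HCC827 libraries. The related CT45A3 was at 147 and 157 FPKM and CT45A8 at 72.9 and 79.4 FPKM in NCI-H1975, and both were listed at 0 in HCC827; reads can be split between these near-identical copies, so the level of each copy is uncertain. SPARC, a collagen-binding matrix glycoprotein, was at 61.2 and 61.5 FPKM in NCI-H1975, against 0.09 and 0.11 FPKM in HCC827 (5.82 ± 0.14, adjusted p = 5.96e-06). PLTP, a phospholipid transfer protein (5.00 ± 0.18), and the zinc finger genes ZNF114 (4.69 ± 0.14) and ZNF655 (4.60 ± 0.15) followed. All 3 were between 23.9 and 70.4 FPKM in NCI-H1975 and at or below 1.63 FPKM in HCC827.

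The genes lowest in NCI-H1975 relative to HCC827 were headed by secreted defence and inflammation proteins. LCN2, an iron-siderophore binding protein made by inflamed epithelia, was at 0.06 and 7.55 FPKM in NCI-H1975, against 2024 and 3246 FPKM in HCC827 (-9.73 ± 0.49, adjusted p = 4.94e-05). CXCL5, a neutrophil-attracting chemokine, was at 0.04 and 0.38 FPKM in NCI-H1975, against 338 and 629.8 FPKM in HCC827 (-8.59 ± 0.17, adjusted p = 5.39e-06). S100A9, a subunit of calprotectin, was at 0.83 and 3.46 FPKM in NCI-H1975, against 613 and 1650 FPKM in HCC827 (-8.46 ± 0.15, adjusted p = 5.39e-06). All 3 were among the abundant transcripts of HCC827 and close to the detection floor of NCI-H1975 in the DMSO library, with somewhat higher values in the siCON library. SPP1, the secreted phosphoprotein osteopontin, was at 0.24 and 0.27 FPKM in NCI-H1975, against 248 and 452 FPKM in HCC827 (-8.06 ± 0.21). LY6D, a keratinocyte surface antigen, was at 0.76 and 0.13 FPKM in NCI-H1975, against 295 and 267 FPKM in HCC827 (-7.64 ± 0.17). The other 5 were the X-linked BEX3 (-7.10 ± 0.16), the pneumocyte protease NAPSA (-6.47 ± 0.23), LOC102724788 (-6.40 ± 0.17), the decoy receptor TNFRSF6B (-6.05 ± 0.19) and the prostaglandin-degrading enzyme HPGD (-5.85 ± 0.14). In every one of these the 2 NCI-H1975 libraries stayed at or below 1.74 FPKM and the 2 HCC827 libraries at or above 64.8 FPKM.

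The EGFR axis itself was lower in NCI-H1975 at the receptor and at most ligands. EGFR (chromosome 7, 55019021 to 55211628, plus strand, GENCODE 29 on GRCh38) was at 25.4 and 13.6 FPKM in NCI-H1975, against 616 and 222 FPKM in HCC827. Both NCI-H1975 libraries lay far below both HCC827 libraries, a difference of -4.24 ± 0.20 (adjusted p = 3.98e-05), and the treated pairs gave -4.27 ± 0.18. Of the 9 tested ERBB receptors and ligands, 7 were lower and 1 was higher in NCI-H1975, with a median of -1.63 against 0.13 over all genes. EREG, the ligand epiregulin, was at 6.98 and 2.72 FPKM in NCI-H1975, against 134 and 49.7 FPKM in HCC827 (-3.93 ± 0.15, adjusted p = 2.13e-05). AREG, the ligand amphiregulin, was at 20.6 and 14.5 FPKM in NCI-H1975, against 180.3 and 150 FPKM in HCC827 (-3.17 ± 0.15, adjusted p = 4.23e-05). The ligands BTC (-1.88 ± 0.18) and TGFA (-1.63 ± 0.14) lay the same way in both pairs. EREG, AREG and BTC are neighbours on chromosome 4, and the next tested gene, PARM1, completed a run of 4 that was at least 2-fold lower in both pairs.

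The partner receptors ERBB2 and ERBB3 differed little. ERBB2 was at 30.3 and 20.7 FPKM in NCI-H1975, against 45.2 and 26.0 FPKM in HCC827 (-0.44 ± 0.15, adjusted p = 0.0473), and the treated pairs did not call it (-0.29 ± 0.17, adjusted p = 0.197). ERBB3 was at 20.96 and 15.4 FPKM in NCI-H1975, against 25.4 and 11.5 FPKM in HCC827 (0.06 ± 0.19, adjusted p = 0.794), so the pairs disagreed in sign. HBEGF, the heparin-binding ligand, was the 1 member higher in NCI-H1975, at 2.32 and 2.18 FPKM against 1.56 and 0.53 FPKM in HCC827 (0.72 ± 0.22, adjusted p = 0.0336). In the treated pairs its difference was -0.15 ± 0.55. NRG1, a ligand of ERBB3, was called lower at -0.51 ± 0.17 in the controls but not in the treated pairs. Across the treated libraries 5 of the 7 lower members were called again and the higher one was not.

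Downstream of the receptor the list did not move one way. Of 63 tested signal transduction and feedback genes 15 were higher (9 also in the treated pairs) and 20 lower (18 also in the treated pairs), with a median of -0.13 (-0.20 in the DMSO pair, -0.01 in the siCON pair). After quantile normalization 8 were higher and 20 lower, with no filter 5 and 10, and without the block 4 and 9. Over all genes 30.1% were higher and 19.7% lower. DUSP6, the phosphatase that removes activating phosphates from ERK, was at 2.04 and 4.20 FPKM in NCI-H1975, against 36.3 and 21.9 FPKM in HCC827 (-2.88 ± 0.32, adjusted p = 0.000948). SRC, a membrane-associated kinase, was at 7.32 and 7.38 FPKM in NCI-H1975, against 61.6 and 47.6 FPKM in HCC827 (-2.72 ± 0.15, adjusted p = 7.57e-05). VAV3, an exchange factor for small GTPases, was at 0.17 and 0.08 FPKM in NCI-H1975, against 7.43 and 7.98 FPKM in HCC827 (-2.95 ± 0.16). These 3 genes were separated by line in both pairs and were lower in the treated pairs as well. CCND1, cyclin D1, was lower by a smaller margin (-1.34 ± 0.18), as were the kinases AKT2 (-1.02 ± 0.15) and MAP2K1 (-0.84 ± 0.14) and the adaptor EPS8 (-1.22 ± 0.14).

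Several kinases of the same cascade were higher in NCI-H1975. MAP2K2, a MEK kinase, was at 119.8 and 164 FPKM in NCI-H1975, against 63.7 and 69.6 FPKM in HCC827 (1.06 ± 0.17, adjusted p = 0.00327), opposite to its paralog MAP2K1. ARAF (1.09 ± 0.14) lay the same way as MAP2K2. The catalytic PI3K subunit PIK3CA was higher too (0.69 ± 0.16). Immediate early genes were uneven: EGR1 (1.00 ± 0.26) and DUSP1 (1.14 ± 0.17) were called higher in the controls but in neither case in the treated pairs, and FOS was at 4.04 and 1.95 FPKM in NCI-H1975, against 3.71 and 1.97 FPKM in HCC827. The feedback inhibitors SPRY2 (-0.27 ± 0.14) and SPRY4 (-0.36 ± 0.21) did not pass the threshold, and SPRY1 was lower (-0.97 ± 0.14).

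Of 25 other receptor tyrosine kinases and their ligands tested, 7 were higher and 10 lower. MET, the receptor for hepatocyte growth factor, was at 87.2 and 41.03 FPKM in NCI-H1975, against 234 and 96.5 FPKM in HCC827 (-1.31 ± 0.16, adjusted p = 0.00124). Its ligand HGF was at 0.01 and 0 FPKM in NCI-H1975, against 2.62 and 1.93 FPKM in HCC827 (-1.70 ± 0.20), and KIT was listed at 0 in NCI-H1975 and at 3.23 and 2.49 FPKM in HCC827. Both members of the ligand and receptor pair were thus lower in NCI-H1975. AXL, a receptor often examined in EGFR inhibitor resistance, was at 1.03 and 0.64 FPKM in NCI-H1975, against 1.76 and 0.49 FPKM in HCC827 and did not differ past the threshold (-0.15 ± 0.22, adjusted p = 0.585). EPHB4 (1.26 ± 0.14) and CSF1R, the receptor for a macrophage growth factor (2.69 ± 0.17), were higher in NCI-H1975.

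**Figure D2:**
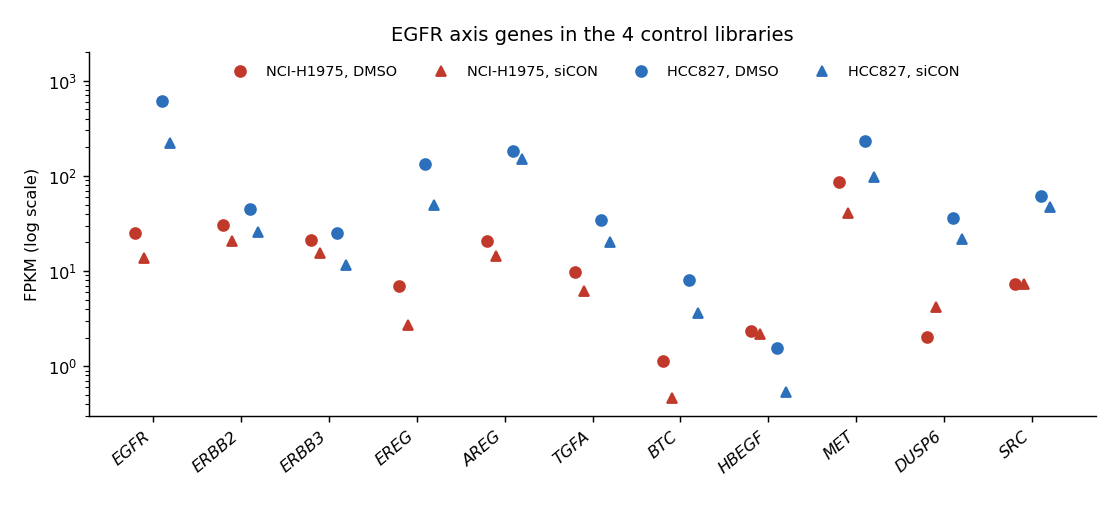
FPKM on a log axis for 11 genes of the EGFR axis in the 4 control libraries, with NCI-H1975 in red, HCC827 in blue, circles for DMSO and triangles for siCON. EGFR, EREG, AREG, DUSP6 and SRC are separated by line, with EGFR at 25.4 and 13.6 FPKM in NCI-H1975, against 616 and 222 FPKM in HCC827, and ERBB2 and ERBB3 overlap.

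Genes beside EGFR differed with it. SEC61G, a subunit of the protein translocation channel whose start site lies 0.26 Mb before that of EGFR, was at 473 and 613 FPKM in NCI-H1975, against 6536 and 14420.5 FPKM in HCC827 (-4.17 ± 0.31, adjusted p = 0.000206). LANCL2, 0.35 Mb beyond EGFR, was at 11.9 and 10.6 FPKM in NCI-H1975, against 108 and 119 FPKM in HCC827 (-3.23 ± 0.15, adjusted p = 4.09e-05). VOPP1, 0.55 Mb beyond, was at 70.2 and 44.7 FPKM in NCI-H1975, against 1119 and 678 FPKM in HCC827 (-3.94 ± 0.17, adjusted p = 3.6e-05). These 3 genes and EGFR formed a run in which every gene was at least 2-fold lower in NCI-H1975 in both pairs. The 8 called genes from ZNF713 (0.87 Mb) to CHCHD2 (1.09 Mb) were lower by less, between -0.81 and -1.49, and SEPTIN14, at or below 1.03 FPKM everywhere, was not called (0.27 ± 0.20). Within 2 Mb of the EGFR start site 12 of 13 tested genes were lower and none was higher, with a median of -1.33. Farther out the genes no longer lay one way: within 5 Mb 13 of 17 were lower, 3 were higher and the median was -1.14, and within 10 Mb 14 of 32 were lower, 12 were higher and the median was 0.08. On the side of SEC61G the next tested genes, COBL (1.37 ± 0.22) and GRB10 (0.84 ± 0.19), were higher in NCI-H1975. Beyond them DDC (-4.02 ± 0.15) and IGFBP3 (-6.04 ± 0.47) were far lower. FIGNL1 (0.60 ± 0.19), HUS1 (1.06 ± 0.14), SUN3 (2.71 ± 0.20) and TBRG4 (0.60 ± 0.17) on that side were higher. RNA levels do not measure copy number, and copy number was not analysed here.

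A second local block of lower genes surrounded CDK4, the cyclin D-dependent kinase, on chromosome 12. CDK4 (57747727 to 57756013, minus strand, GENCODE 29 on GRCh38) was at 204 and 280.1 FPKM in NCI-H1975, against 1706 and 3053 FPKM in HCC827 (-3.25 ± 0.23, adjusted p = 0.000164). OS9, a lectin of the endoplasmic reticulum, was at 89.9 and 106 FPKM in NCI-H1975, against 1707 and 1324 FPKM in HCC827 (-3.93 ± 0.22, adjusted p = 7.72e-05). PIP4K2C, a lipid kinase, was at 44.4 and 45.04 FPKM in NCI-H1975, against 529 and 458 FPKM in HCC827 (-3.43 ± 0.17, adjusted p = 4.81e-05). All 3 were several-fold lower in both NCI-H1975 libraries, and in the treated pairs their differences were -3.06, -4.10 and -3.30. TSPAN31 (-2.88), AGAP2 (-2.08) and MARCHF9 (-1.94) were lower too. Other genes of the stretch were not: DCTN2 (0.72), DTX3 (0.79), B4GALNT1 (0.97), METTL1 (0.80) and CTDSP2 (0.65) were higher in NCI-H1975, and MARS1 (-0.40) and TSFM (0.50) were not called. OS9, AGAP2, TSPAN31, CDK4 and MARCHF9 formed an unbroken run of 5 tested genes, each at least 2-fold lower in both pairs, and DTX3 and B4GALNT1 lay between that run and PIP4K2C. Among other cell cycle genes, CDKN2A, which encodes the inhibitors p16 and p14ARF, was at 57.4 and 103 FPKM in NCI-H1975, against 274 and 368 FPKM in HCC827 (-2.03 ± 0.18).

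**Figure D3:**
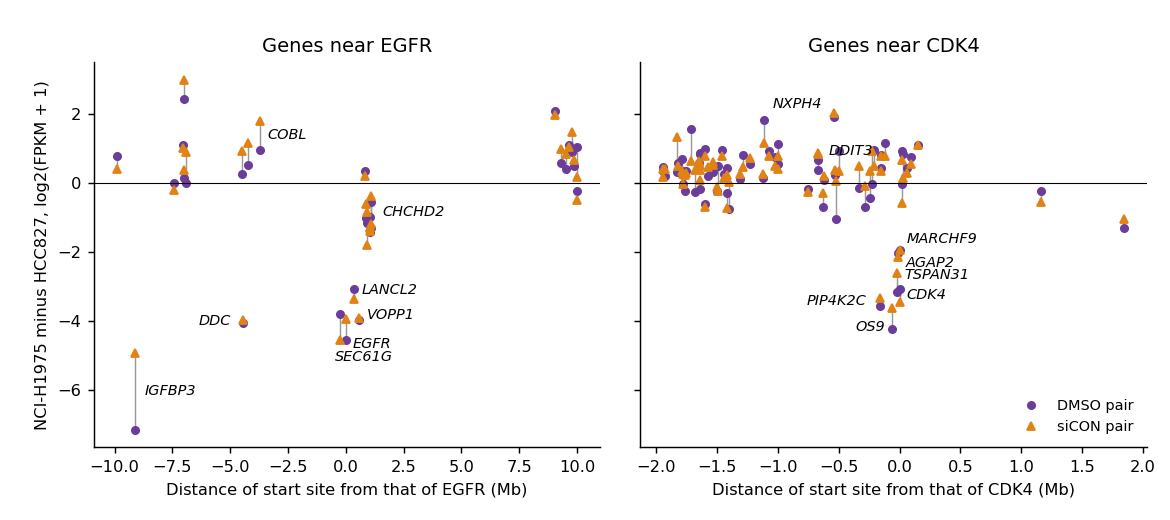
Difference (NCI-H1975 minus HCC827, log2(FPKM + 1)) of each tested gene against the distance of its start site in Mb from that of EGFR (left panel) and CDK4 (right panel), with circles for the DMSO pair and triangles for the siCON pair. Within 2 Mb of EGFR the genes from SEC61G to VOPP1 lie lowest and most others lie near -1. Farther out, DDC and IGFBP3 also lie far below 0. Around CDK4 strongly lower genes stand beside genes above 0.

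Lung lineage genes followed the difference in several ways. NKX2-1, the master regulator of lung epithelium, was at 44.7 and 30.8 FPKM in NCI-H1975, against 32.3 and 22.9 FPKM in HCC827 (0.43 ± 0.14, adjusted p = 0.0405). It was thus well expressed in both lines and higher in NCI-H1975 by a small margin. Of 23 tested lineage factors 13 were lower (12 also in the treated pairs) and 6 higher (5 also in the treated pairs), with a median of -0.95. EHF, an epithelial ETS factor, was at 0.03 and 0.35 FPKM in NCI-H1975, against 33.4 and 19.5 FPKM in HCC827 (-4.49 ± 0.27, adjusted p = 8.78e-05). SPDEF, which drives mucus cell differentiation, was at 0.16 and 0.15 FPKM in NCI-H1975, against 17.5 and 10.4 FPKM in HCC827 (-3.65 ± 0.20). FOXA1 was at 0.15 and 0.50 FPKM in NCI-H1975, against 15.9 and 6.98 FPKM in HCC827 (-3.15 ± 0.33). These 3 factors were near 0 in NCI-H1975 and not in HCC827. The paralog FOXA2 went the other way, at 12.3 and 11.3 FPKM in NCI-H1975, against 2.45 and 2.27 FPKM in HCC827 (1.93 ± 0.14, adjusted p = 0.00018). SOX2, a marker of proximal airway, was lower (-2.62 ± 0.16) and SOX9, a marker of distal progenitors, was higher (2.60 ± 0.17). HNF4G, a factor typical of gut epithelium, was lower (-3.58 ± 0.18).

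Secreted and surface products of lung epithelium were lower in NCI-H1975 in 17 of 21 tested cases, 16 of them also in the treated pairs, with a median of -2.63, and 1 was higher. NAPSA, an aspartic protease of pneumocytes, was at 1.22 and 1.74 FPKM in NCI-H1975, against 273 and 173 FPKM in HCC827. MUC5B, a gel-forming airway mucin, was at 0.02 and 0.03 FPKM in NCI-H1975, against 136 and 19.8 FPKM in HCC827 (-5.70 ± 0.56, adjusted p = 0.000576). AGR2, a disulphide isomerase needed for mucin folding, was at 1.17 and 5.74 FPKM in NCI-H1975, against 158 and 126 FPKM in HCC827 (-5.22 ± 0.41, adjusted p = 0.000263). The values separated by line in both pairs, although MUC5B varied widely between the 2 HCC827 libraries. CEACAM6 (-5.57 ± 0.36), MUC4 (-4.15 ± 0.33), MUC1 (-4.09 ± 0.14) and SLPI, a protease inhibitor of airway fluid (-3.66 ± 0.44), lay the same way. The water channel AQP3 was the 1 higher member (1.85 ± 0.17). Surfactant genes were scarce in both lines: SFTPB was at 0.45 and 0.29 FPKM in NCI-H1975, against 2.35 and 1.33 FPKM in HCC827, and the listed SFTPA1, SFTPA2, SFTPC and SFTPD did not reach the filter or were not complete in both tables.

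Keratins split into a shared simple-epithelial set and line-specific ones. KRT7 was at 1154 and 1952 FPKM in NCI-H1975, against 1118 and 1601 FPKM in HCC827 and did not differ past the threshold (0.17 ± 0.25, adjusted p = 0.605). KRT8 was at 599 and 928 FPKM in NCI-H1975, against 2791 and 2635 FPKM in HCC827 (-1.86 ± 0.28, adjusted p = 0.00287). Its partner KRT18 was lower as well (-1.28 ± 0.26), as was KRT19 (-1.04 ± 0.27), and all 3 were at 599 FPKM or more in NCI-H1975. Stratified-epithelium keratins differed most: KRT16 was at 1.35 and 3.36 FPKM in NCI-H1975, against 329.8 and 106 FPKM in HCC827 (-5.88 ± 0.52, adjusted p = 0.000386), and KRT14 was at 0.28 and 0.33 FPKM in NCI-H1975, against 57.0 and 12.4 FPKM in HCC827 (-4.42 ± 0.45). Both were low in both NCI-H1975 libraries. In HCC827 both were higher in the DMSO library than in the siCON library, a difference between experiments that was not tested. KRT81, a hair keratin, was higher in NCI-H1975 (2.56 ± 0.54), with 1.89 and 18.7 FPKM against 0.21 and 0.35 FPKM in HCC827. In all, 8 of 13 tested keratins were lower and 2 higher, and each of these calls was also made in the treated pairs. With no filter 1 was lower and 0 higher, and without the block 4 were lower and 0 higher. Keratin genes share sequence, and reads of close paralogs may have been split by the authors' counting.

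Junction genes showed partial differences and mesenchymal genes went both ways. Of 40 tested epithelial junction and splicing genes 14 were lower and 5 higher, with a median of -0.39 (-0.62 in the DMSO pair, -0.18 in the siCON pair), and with no filter on low values 5 were lower and 5 higher. RAB25, an epithelial recycling GTPase, was at 0.23 and 0.40 FPKM in NCI-H1975, against 42.3 and 49.1 FPKM in HCC827 (-5.15 ± 0.14, adjusted p = 8.57e-06). CDH1, E-cadherin, was at 75.1 and 59.9 FPKM in NCI-H1975, against 199 and 118 FPKM in HCC827 (-1.18 ± 0.18, adjusted p = 0.00277). EPCAM was at 421 and 372 FPKM in NCI-H1975, against 418 and 314 FPKM in HCC827 (0.13 ± 0.20, adjusted p = 0.614). E-cadherin was therefore lower but well expressed in NCI-H1975, and the splicing factors ESRP1 (-0.19 ± 0.15) and ESRP2 (0.21 ± 0.14) did not pass the threshold. The tight junction gene CLDN2 was lower (-5.0 ± 0.26) and the desmosome gene DSP higher (1.63 ± 0.13).

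Of 32 tested mesenchymal genes 15 were higher in NCI-H1975 and 8 lower, with a median of 0.41, and 12 and 8 of these were called again in the treated pairs, where the median was 0.23. With no filter 7 were higher and 7 lower. VIM, the intermediate filament vimentin, was at 86.1 and 83.9 FPKM in NCI-H1975, against 2.73 and 10.7 FPKM in HCC827 (3.71 ± 0.36, adjusted p = 0.000555). COL6A1, a collagen VI chain, was at 7.44 and 11.7 FPKM in NCI-H1975, against 0.26 and 0.33 FPKM in HCC827 (3.00 ± 0.18), and its partner COL6A2 behaved alike (2.59 ± 0.19). TGFBR1, a receptor for TGF-beta, was higher (2.28 ± 0.14), whereas TGFB1, the ligand, was at 2.98 and 3.08 FPKM in NCI-H1975, against 22.4 and 19.4 FPKM in HCC827 (-2.44 ± 0.14). The list was thus split within the same pathway. MMP7, a protease of glandular epithelium, was lower (-4.53 ± 0.14), and so were the basement membrane collagen COL4A2 (-3.69 ± 0.16) and tenascin TNC (-2.15 ± 0.15). FN1, fibronectin, differed in sign between the pairs (0.11 ± 0.30), and ZEB1, ZEB2, CDH2 and FOXC2 were not tested.

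Integrins and laminins were lower in NCI-H1975 in 11 of 21 tested cases and higher in 1. ITGB1, the beta chain shared by most collagen and laminin receptors, was at 102 and 72.9 FPKM in NCI-H1975, against 677 and 434 FPKM in HCC827 (-2.64 ± 0.18, adjusted p = 0.000133). LAMB1, a laminin chain, was at 3.63 and 1.64 FPKM in NCI-H1975, against 94.9 and 55.8 FPKM in HCC827 (-4.40 ± 0.13, adjusted p = 1.39e-05). Both were several-fold lower in each pair. The alpha chain ITGA3 (-1.53 ± 0.24), the beta chains ITGB4 (-1.57 ± 0.26) and ITGB6 (-1.77 ± 0.25), and the laminin chain LAMA5 (-2.81 ± 0.17) lay the same way. ITGB3 was the 1 higher member (2.38 ± 0.19), at 5.91 and 4.86 FPKM in NCI-H1975, against 0.13 and 0.33 FPKM in HCC827.

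Squamous differentiation and S100 genes divided by member, with 14 of 27 tested lower and 7 higher. S100A8, the calprotectin partner of S100A9, was at 0 and 0.13 FPKM in NCI-H1975, against 4.39 and 56.7 FPKM in HCC827 (-4.05 ± 0.66, adjusted p = 0.00376). S100A7, psoriasin, was at 0.13 and 0 FPKM in NCI-H1975, against 19.1 and 70.4 FPKM in HCC827 (-5.16 ± 0.42). TGM2, a crosslinking transglutaminase, was at 14.6 and 25.9 FPKM in NCI-H1975, against 162 and 219.7 FPKM in HCC827 (-3.21 ± 0.16). In HCC827 the S100A7, S100A8 and S100A9 levels were higher in the siCON library than in the DMSO library. These libraries come from separate experiments, and the difference between them was not tested. The most abundant family members, S100A6, S100A10 and S100A11, were at 752 FPKM or more in each library and not called, although all 3 were called higher in the treated pairs. SERPINB5, maspin, was at 23.5 and 21.4 FPKM in NCI-H1975, against 4.01 and 4.47 FPKM in HCC827 (2.16 ± 0.14), and S100A13 was higher too (1.15 ± 0.17).

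Complement and acute phase genes stood lower in NCI-H1975 as a group: 12 of 18 tested members were lower, 12 of those also in the treated pairs, 1 was higher, and the median was -3.17. C3, the central component, was at 0.21 and 1.44 FPKM in NCI-H1975, against 8.65 and 16.2 FPKM in HCC827 (-2.90 ± 0.15, adjusted p = 5.21e-05). APOL1, an interferon- and TNF-inducible apolipoprotein, was at 9.52 and 14.4 FPKM in NCI-H1975, against 355 and 363 FPKM in HCC827 (-4.82 ± 0.18, adjusted p = 2.1e-05). Both were separated by line in both pairs. The proteases C1S (-3.79 ± 0.20) and C1R (-2.98 ± 0.16), which start the classical pathway, factor I, CFI (-3.28 ± 0.13), the serum amyloid SAA2 (-4.45 ± 0.16) and the fibrinogen chain FGB (-5.0 ± 0.36) lay the same way. CFB was at 4.02 and 39.3 FPKM in NCI-H1975, against 140.3 and 139 FPKM in HCC827, so the pairs gave differences of -4.81 and -1.80. SERPINA1, alpha-1 antitrypsin, was at 18.6 and 63.9 FPKM in NCI-H1975, against 26.8 and 51.2 FPKM in HCC827 and was not called.

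Chemokines that attract neutrophils and bind the receptor CXCR2 were lower in NCI-H1975 together. CXCL1 was at 0.04 and 0.55 FPKM in NCI-H1975, against 98.6 and 71.7 FPKM in HCC827 (-6.07 ± 0.24, adjusted p = 2.57e-05). CXCL8, interleukin 8, was at 0.79 and 26.3 FPKM in NCI-H1975, against 39.4 and 118 FPKM in HCC827 (-3.31 ± 0.49, adjusted p = 0.00265). CXCL2 was at 0.54 and 5.84 FPKM in NCI-H1975, against 26.8 and 41.6 FPKM in HCC827 (-3.41 ± 0.33, adjusted p = 0.000561). In each pair NCI-H1975 was lower, and within NCI-H1975 the siCON library was the higher one. CXCL3 lay the same way (-3.06 ± 0.15), and with CXCL5 and the neighbouring RASSF6 these genes formed a run of 6 on chromosome 4 that was at least 2-fold lower in both pairs. In the treated pairs CXCL5 differed by -7.93 ± 0.39, CXCL1 by -5.68 ± 0.31 and CXCL8 by -2.85 ± 0.36.

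The promoters of the 5 chemokines are shown because the genes lie side by side and differed together; they were chosen after their values were seen. RefSeq (GRCh38.p14) gives 250 bases before to 50 bases after the start site, written from the 5′ end on the strand of the gene. The letters GGAATTTCC, a form of the NF-kB element, were searched on both strands, and capitals mark a match. CXCL1 lies at chr4:73869143-73869442 (plus), CXCL2 at chr4:74099146-74099445 (minus), CXCL3 at chr4:74038640-74038939 (minus), CXCL5 at chr4:73998628-73998927 (minus) and CXCL8 at chr4:73740319-73740618 (plus).
CXCL1: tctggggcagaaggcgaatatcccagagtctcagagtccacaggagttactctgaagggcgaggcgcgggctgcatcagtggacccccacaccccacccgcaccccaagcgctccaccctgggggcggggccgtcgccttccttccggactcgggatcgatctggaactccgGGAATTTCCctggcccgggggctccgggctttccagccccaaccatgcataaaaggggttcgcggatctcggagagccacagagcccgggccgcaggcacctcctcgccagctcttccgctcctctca
CXCL2: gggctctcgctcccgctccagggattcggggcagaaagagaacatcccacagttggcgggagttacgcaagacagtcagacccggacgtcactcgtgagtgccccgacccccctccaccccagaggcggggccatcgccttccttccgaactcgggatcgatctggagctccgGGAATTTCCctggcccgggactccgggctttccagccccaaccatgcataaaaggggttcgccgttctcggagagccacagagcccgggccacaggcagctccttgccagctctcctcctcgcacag
CXCL3: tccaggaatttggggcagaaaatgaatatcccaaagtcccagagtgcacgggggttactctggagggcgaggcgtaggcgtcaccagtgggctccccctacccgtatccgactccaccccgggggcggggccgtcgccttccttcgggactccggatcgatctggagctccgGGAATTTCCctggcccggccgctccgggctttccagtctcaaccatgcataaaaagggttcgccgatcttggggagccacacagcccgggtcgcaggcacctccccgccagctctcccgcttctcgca
CXCL5: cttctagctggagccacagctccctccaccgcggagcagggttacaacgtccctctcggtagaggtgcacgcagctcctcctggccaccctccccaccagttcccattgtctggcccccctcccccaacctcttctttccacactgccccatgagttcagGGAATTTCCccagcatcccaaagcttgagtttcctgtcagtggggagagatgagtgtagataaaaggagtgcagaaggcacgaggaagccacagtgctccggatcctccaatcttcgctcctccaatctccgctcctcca
CXCL8: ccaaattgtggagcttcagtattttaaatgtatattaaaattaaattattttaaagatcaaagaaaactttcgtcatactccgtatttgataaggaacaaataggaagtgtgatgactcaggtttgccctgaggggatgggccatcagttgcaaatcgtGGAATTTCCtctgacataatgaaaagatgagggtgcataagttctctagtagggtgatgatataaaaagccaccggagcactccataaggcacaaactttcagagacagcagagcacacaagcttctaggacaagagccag
Each of the 5 holds 1 match, upstream of the start site, and 0 matches to the motif searched for the interferon genes. The same letters were found in 162 of 35116 RefSeq promoter windows of this length (0.461%). Within the chemokine and cytokine list they were in 5 of the 13 lower genes with a promoter in the table, in 0 of 7 higher genes and in 0 of 8 genes that were not called. Those 5 are the promoters printed above, picked after their values were seen, so the counts are not a test of the element. In CXCL1, CXCL2 and CXCL3 the match sits within nearly the same letters, so these are not separate observations. A match is a description of these letters and shows no binding.

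Over the whole chemokine and cytokine list 15 of 35 tested members were lower and 10 higher; the 15 were all called lower in the treated pairs and 6 of the 10 were called higher. CCL20, which attracts dendritic and Th17 cells, was at 0 and 8.56 FPKM in NCI-H1975, against 12.9 and 115 FPKM in HCC827 (-3.70 ± 0.14, adjusted p = 2.11e-05). The membrane-bound chemokines CX3CL1 (-3.75 ± 0.16) and CXCL16 (-3.72 ± 0.29) were lower too, and so were the interleukin 1 genes IL1A (-2.17 ± 0.30) and IL1B (-2.32 ± 0.46). IL24 was at 8.26 and 10.6 FPKM in NCI-H1975, against 0.05 and 0 FPKM in HCC827 (3.34 ± 0.18, adjusted p = 5.75e-05). IL7R (2.10 ± 0.16), LIFR (2.48 ± 0.17) and IL18 (1.35 ± 0.16) were higher as well. IL6 was at 3.18 and 5.43 FPKM in NCI-H1975, against 1.11 and 4.23 FPKM in HCC827 (0.64 ± 0.20, adjusted p = 0.0386), and in the treated pairs the difference was -0.01 ± 0.52.

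Several NF-kB feedback genes were lower and the subunits were not called. BIRC3, an inhibitor of apoptosis induced by NF-kB, was at 0.24 and 2.06 FPKM in NCI-H1975, against 16.9 and 25.5 FPKM in HCC827 (-3.48 ± 0.20, adjusted p = 7.99e-05). NFKBIZ, an atypical inhibitor protein that also activates a set of targets, was at 2.30 and 3.22 FPKM in NCI-H1975, against 49.1 and 33.4 FPKM in HCC827 (-3.48 ± 0.22, adjusted p = 0.00012). NFKBIA, the classical inhibitor, was at 26.7 and 83.7 FPKM in NCI-H1975, against 88.3 and 141 FPKM in HCC827 (-1.22 ± 0.24, adjusted p = 0.0075). The first 2 were far apart between the lines and NFKBIA moderately so. RELA (-0.27 ± 0.15), NFKB1 (-0.24 ± 0.15), REL (-0.24 ± 0.20), RELB (0.14 ± 0.24) and NFKB2 (0.32 ± 0.18) did not pass the threshold. Of 22 tested members 7 were lower and 3 higher. TRAF1 was the higher member that differed most, at 2.03 and 9.33 FPKM in NCI-H1975, against 0.17 and 1.07 FPKM in HCC827 (1.85 ± 0.25). It was called higher in the treated pairs as well (1.25 ± 0.25). The other higher members were the kinases CHUK (1.10 ± 0.14) and IKBKB (0.79 ± 0.16, but 0.29 ± 0.16 in the treated pairs and not called there).

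Interferon-stimulated genes moved in opposite directions by member. Of 53 tested 20 were higher, 17 of them also in the treated pairs, and 13 lower, 3 of them also in the treated pairs. IFITM1, a membrane protein that restricts virus entry, was at 211 and 322 FPKM in NCI-H1975, against 10.4 and 11.7 FPKM in HCC827 (4.44 ± 0.17, adjusted p = 2.28e-05). IFITM2 (4.18 ± 0.18) and IFITM3 (1.83 ± 0.20) lay the same way. IFIT1, which binds foreign RNA, was at 24.2 and 24.1 FPKM in NCI-H1975, against 9.05 and 8.77 FPKM in HCC827 (1.34 ± 0.13, adjusted p = 0.000597), and IFIT2 (1.68 ± 0.19) and IFIT3 (1.60 ± 0.15) beside it on chromosome 10 were higher as well. IFI27 was at 133 and 628.7 FPKM in NCI-H1975, against 58.2 and 122 FPKM in HCC827 (1.77 ± 0.29, adjusted p = 0.00359). The RNA sensors DDX58 (1.42 ± 0.13) and IFIH1 (0.72 ± 0.19, not called in the treated pairs), OASL (2.10 ± 0.17), ISG15 (1.08 ± 0.20) and STING1 (1.04 ± 0.14) were also higher in NCI-H1975.

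The lower members included guanylate-binding proteins and antiviral enzymes. GBP1, a GTPase most strongly induced by interferon gamma, was at 2.13 and 2.54 FPKM in NCI-H1975, against 19.4 and 14.9 FPKM in HCC827 (-2.44 ± 0.17, adjusted p = 0.000175). GBP2 (-2.2 ± 0.15) and GBP3 (-2.41 ± 0.25) lay the same way, and these 3 were the lower members called again in the treated pairs. MX1, an antiviral GTPase, was at 8.07 and 22.9 FPKM in NCI-H1975, against 63.2 and 32.5 FPKM in HCC827 (-1.65 ± 0.49, adjusted p = 0.0306), with -2.82 in the DMSO pair, -0.48 in the siCON pair and -0.89 ± 0.86 in the treated pairs. IFI44L was at 4.22 and 10.8 FPKM in NCI-H1975, against 46.0 and 19.7 FPKM in HCC827 (-1.99 ± 0.49), and OAS3 was at 18.5 and 17.8 FPKM in NCI-H1975, against 65.2 and 25.8 FPKM in HCC827 (-1.13 ± 0.29). The gap between lines for MX1, IFI44L and OAS3 was wide in the DMSO pair and narrow in the siCON pair. The list's median was -0.27 in the DMSO pair and 0.40 in the siCON pair, so its overall direction differed between the pairs.

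Promoters of 2 higher and 2 lower interferon-stimulated genes are shown to set both directions side by side; these 4 were chosen after their values were seen. The letters GAAA, any 2 bases, then GAAA, the core of the interferon-stimulated response element, were searched on both strands of the same RefSeq windows, and capitals mark matches. The windows are chr10:89392373-89392672 for IFIT1, chr11:313790-314089 for IFITM1, chr1:78620198-78620497 for IFI44L and chr12:112938224-112938523 for OAS3, all on the plus strand.
IFIT1: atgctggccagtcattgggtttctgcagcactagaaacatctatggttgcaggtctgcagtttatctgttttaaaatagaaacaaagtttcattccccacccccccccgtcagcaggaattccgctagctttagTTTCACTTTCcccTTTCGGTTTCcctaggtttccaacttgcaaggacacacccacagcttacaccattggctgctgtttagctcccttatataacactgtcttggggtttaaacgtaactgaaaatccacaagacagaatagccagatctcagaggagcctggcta
IFITM1: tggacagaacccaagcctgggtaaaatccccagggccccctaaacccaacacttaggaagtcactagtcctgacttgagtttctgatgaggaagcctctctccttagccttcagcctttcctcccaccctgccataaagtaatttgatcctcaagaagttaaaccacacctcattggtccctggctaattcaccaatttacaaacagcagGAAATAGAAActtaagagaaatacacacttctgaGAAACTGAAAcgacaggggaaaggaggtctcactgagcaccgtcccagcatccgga
IFI44L: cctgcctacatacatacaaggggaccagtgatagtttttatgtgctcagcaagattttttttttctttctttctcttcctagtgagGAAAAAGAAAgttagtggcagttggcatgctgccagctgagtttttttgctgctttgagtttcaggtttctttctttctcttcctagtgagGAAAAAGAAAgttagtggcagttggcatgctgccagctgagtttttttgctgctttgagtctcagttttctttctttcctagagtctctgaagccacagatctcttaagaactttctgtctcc
OAS3: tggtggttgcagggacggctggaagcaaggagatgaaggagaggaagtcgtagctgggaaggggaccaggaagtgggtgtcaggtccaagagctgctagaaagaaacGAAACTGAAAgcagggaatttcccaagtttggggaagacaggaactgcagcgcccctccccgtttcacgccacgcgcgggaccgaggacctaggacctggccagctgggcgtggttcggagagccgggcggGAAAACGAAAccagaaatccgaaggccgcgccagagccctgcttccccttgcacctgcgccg
Each holds 2 matches, and the OAS3 window also holds 1 match to the NF-kB letters that overlaps neither. Over all promoters 1255 of 35116 windows (3.57%) held at least 1 match. In the list the letters were in 12 of 13 higher genes with a promoter in the table, in 8 of 10 lower genes and in 7 of 17 genes not called, so the motif was common to both directions.

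**Figure D4:**
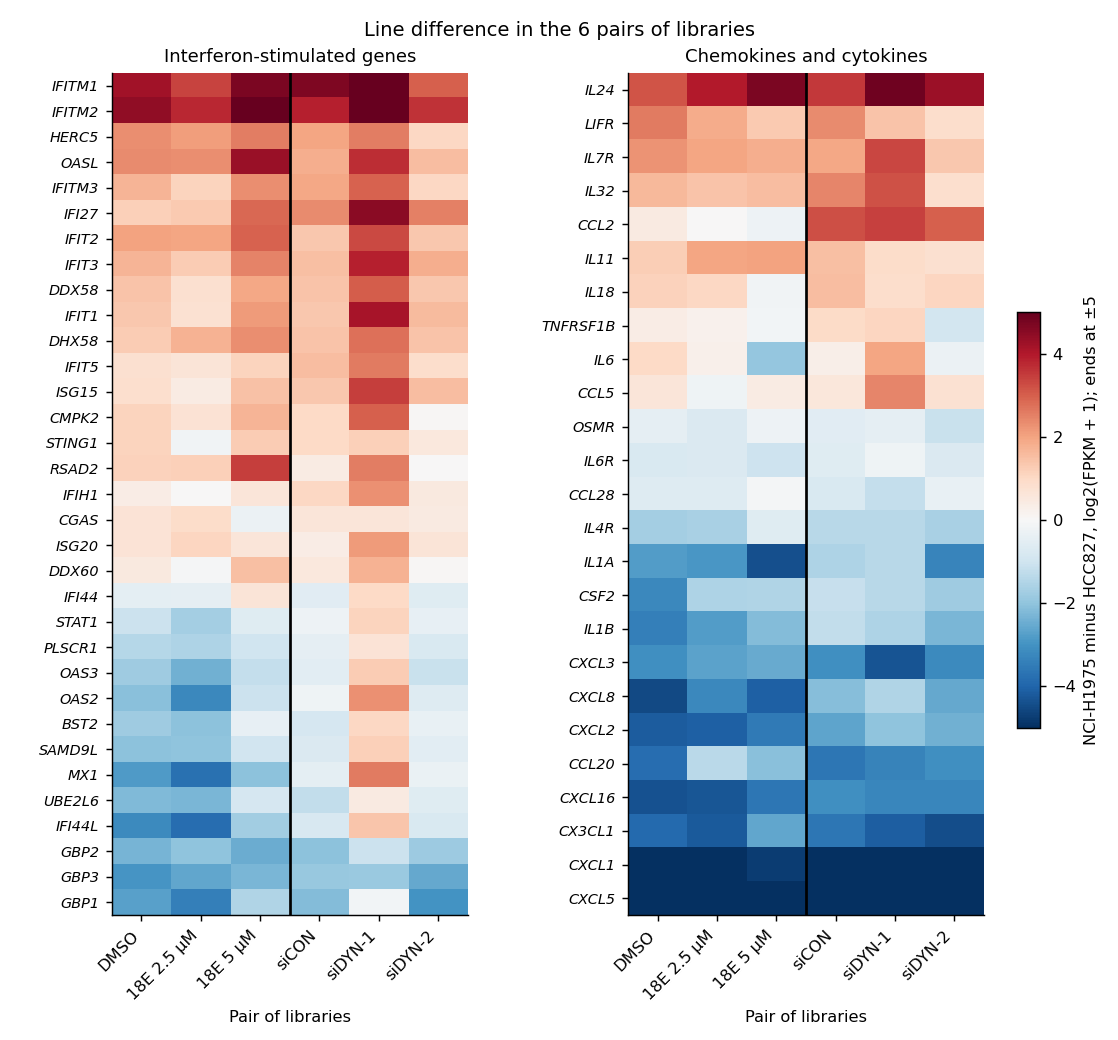
Difference (NCI-H1975 minus HCC827, log2(FPKM + 1)) of the 33 called interferon-stimulated genes and the 25 called chemokine and cytokine genes, 1 row per gene and 1 column per pair of libraries (DMSO, 18E at 2.5 and 5 µM, siCON, siDYN-1, siDYN-2), red for higher and blue for lower in NCI-H1975, with the colour ending at ±5. CXCL5 and CXCL1 are blue and IFITM1 and IFITM2 are red in all 6 pairs, and genes such as MX1 change shade between pairs.

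Of 29 tested antigen presentation genes 4 were higher and 9 lower in NCI-H1975, of which 1 and 5 were called again in the treated pairs. The list's median was -0.61 in the DMSO pair and 0.03 in the siCON pair. B2M, the light chain shared by class I molecules, was at 489 and 655 FPKM in NCI-H1975, against 779 and 671 FPKM in HCC827 (-0.35 ± 0.24) and did not pass the threshold. HLA-C was lower (-1.04 ± 0.31), but mainly in the DMSO pair (-1.71 against -0.38 in the siCON pair). The trimming peptidases went opposite ways: ERAP1 was lower (-1.62 ± 0.23) and ERAP2 higher (2.27 ± 0.17), and both held in the treated pairs. HLA-DRB1, a class II chain, was at 0.09 and 0.31 FPKM in NCI-H1975, against 5.63 and 5.11 FPKM in HCC827 (-2.41 ± 0.18). The HLA genes are highly polymorphic, and what this does to their values was not tested.

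Checkpoint ligands and surface regulators were balanced at 7 higher and 8 lower of 27 tested. CD274, which encodes PD-L1, was at 8.79 and 6.22 FPKM in NCI-H1975, against 14.3 and 5.88 FPKM in HCC827 (-0.29 ± 0.20, adjusted p = 0.258), so the lines were not separated. HHLA2, a B7-family ligand, was at 0.36 and 0.14 FPKM in NCI-H1975, against 51.7 and 45.3 FPKM in HCC827 (-5.31 ± 0.14, adjusted p = 8.57e-06). ICAM1, the adhesion ligand of leukocyte integrins, was at 5.58 and 18.0 FPKM in NCI-H1975, against 113 and 170.5 FPKM in HCC827 (-3.65 ± 0.23, adjusted p = 0.00012). LGALS1, galectin 1, was at 1722 and 2677 FPKM in NCI-H1975, against 70.0 and 342 FPKM in HCC827 (3.78 ± 0.38, adjusted p = 0.000648). Each of the last 3 was separated by line in both pairs. CD70 (2.31 ± 0.29), CD55, which blocks complement (2.07 ± 0.19, but not called in the treated pairs at 1.27 ± 0.46), and PDCD1LG2, which encodes PD-L2 (1.15 ± 0.21), were higher in NCI-H1975, and the death ligand TNFSF10 was lower (-2.74 ± 0.18).

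Stress genes did not form one pattern. Of 27 tested heat shock genes 7 were higher and 4 lower (1 and 2 with no filter), with a median of 0.20. HSPB1, a small heat shock protein, was at 1323 and 1734 FPKM in NCI-H1975, against 547 and 724 FPKM in HCC827 (1.27 ± 0.23, adjusted p = 0.00524). HSPA2, best known from the testis, was at 11.0 and 8.58 FPKM in NCI-H1975, against 0.47 and 0.21 FPKM in HCC827 (3.01 ± 0.15, adjusted p = 4.94e-05). Both lay above HCC827 in each pair. The inducible HSPA1A (0.20 ± 0.20) and the constitutive HSPA8 (-0.09 ± 0.23) were not called. In the treated pairs the median of the list was -0.35, and 4 of the 7 higher members were called again.

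Several chaperones of the endoplasmic reticulum were lower in NCI-H1975. Of 23 tested genes of the unfolded protein response 13 were lower and 5 higher, with a median of -0.61. With no filter 3 were lower and 3 higher, and without the block 3 lower and 2 higher. HSPA5, the chaperone BiP, was at 173 and 149 FPKM in NCI-H1975, against 394 and 241 FPKM in HCC827 (-0.94 ± 0.20, adjusted p = 0.00986). HSP90B1 (-1.34 ± 0.17), HYOU1 (-1.53 ± 0.17) and the degradation factor HERPUD1 (-1.26 ± 0.14) lay the same way. In the treated pairs 6 of the 13 were called again, and HSPA5 was not (-0.29 ± 0.15, adjusted p = 0.135). CREB3L1, a membrane-bound transcription factor, was at 9.17 and 10.6 FPKM in NCI-H1975, against 0.10 and 0.14 FPKM in HCC827 (3.28 ± 0.16, adjusted p = 4.32e-05), and SDF2L1 was higher too (0.99 ± 0.15).

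Of 37 tested ATF4 targets 10 were lower and 1 higher. ATF4, the effector of the integrated stress response, was at 146 and 162 FPKM in NCI-H1975, against 265 and 236 FPKM in HCC827 (-0.70 ± 0.18, adjusted p = 0.0199), and was not called in the treated pairs (-0.39 ± 0.15, adjusted p = 0.0655). DDIT4, an inhibitor of mTORC1, was at 46.4 and 58.5 FPKM in NCI-H1975, against 387 and 555 FPKM in HCC827 (-3.13 ± 0.17, adjusted p = 6.32e-05). The serine synthesis enzymes PHGDH (-1.26 ± 0.27) and PSPH (-1.41 ± 0.15) were lower, and PSPH lies among the lower genes near EGFR. PSAT1, the enzyme between them, was not called (-0.20 ± 0.19). ASNS, asparagine synthetase, was at 47.4 and 55.6 FPKM in NCI-H1975, against 82.3 and 43.6 FPKM in HCC827, with opposite signs in the 2 pairs. The list's median was -0.75 in the DMSO pair and 0.08 in the siCON pair.

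NRF2 targets held large differences in both directions, a median of 0.02 (-0.04 with equal totals, -0.09 after quantile normalization), and 10 of 36 tested members higher and 11 lower. HMOX1, heme oxygenase, was at 98.3 and 166 FPKM in NCI-H1975, against 2.77 and 10.2 FPKM in HCC827 (4.31 ± 0.21, adjusted p = 4.81e-05). AKR1B1, aldose reductase, was at 400.1 and 636 FPKM in NCI-H1975, against 72.5 and 133 FPKM in HCC827 (2.35 ± 0.18, adjusted p = 0.000222). GPX2, a glutathione peroxidase, was at 0.50 and 0.48 FPKM in NCI-H1975, against 48.6 and 55.7 FPKM in HCC827 (-5.15 ± 0.14, adjusted p = 8.87e-06). HMOX1 and AKR1B1 were thus high in NCI-H1975 and GPX2 high in HCC827. The export pumps ABCC2 (-3.66 ± 0.35) and ABCC3 (-3.25 ± 0.21) and the reductase AKR1C3 (-3.82 ± 0.15) were lower. NQO1, the classical target, was at 248 and 229.5 FPKM in NCI-H1975, against 275 and 211 FPKM in HCC827 (-0.01 ± 0.18) and did not differ past the threshold. Of the metallothionein list, 2 of 8 tested members were higher, MT1E and MT1A, which was at 15.7 and 18.7 FPKM in NCI-H1975, against 0 and 0.07 FPKM in HCC827. The abundant MT2A was at 980 and 1466 FPKM in NCI-H1975, against 508 and 1272 FPKM in HCC827 (0.58 ± 0.27, adjusted p = 0.122).

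Hypoxia and glycolysis genes were lower in 16 of 35 tested cases and higher in 5, with a median of -0.31. HIF1A, the oxygen-regulated transcription factor subunit, was at 104 and 95.0 FPKM in NCI-H1975, against 197 and 178 FPKM in HCC827 (-0.91 ± 0.16, adjusted p = 0.00515). ADM, the vasodilator peptide adrenomedullin, was at 0.37 and 0.58 FPKM in NCI-H1975, against 25.6 and 45.5 FPKM in HCC827 (-4.58 ± 0.18, adjusted p = 2.43e-05). PGK1, a glycolytic kinase, was at 344 and 438 FPKM in NCI-H1975, against 834 and 1782 FPKM in HCC827 (-1.65 ± 0.26), and was not called in the treated pairs (-0.84 ± 0.30). These were lower in both pairs, while LDHA (-0.05 ± 0.28) and ENO1 (-0.04 ± 0.31) were not called. Glucose transporters went opposite ways: SLC2A1 was lower (-0.90 ± 0.16) and SLC2A3 was at 14.1 and 13.4 FPKM in NCI-H1975, against 0.07 and 0.12 FPKM in HCC827 (3.75 ± 0.15). In the treated pairs 11 of the 16 lower members were called again.

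Proliferation genes leaned higher in NCI-H1975 in the DMSO pair. Of 33 tested 13 were higher and 2 lower, with a median of 0.63 in the DMSO pair and 0.10 in the siCON pair, against 0.14 and 0.13 over all genes. MKI67 was at 39.9 and 16.6 FPKM in NCI-H1975, against 22.3 and 9.70 FPKM in HCC827 (0.76 ± 0.14, adjusted p = 0.00526), and was not called in the treated pairs (0.68 ± 0.29, adjusted p = 0.0851). BIRC5, survivin, was at 146 and 107 FPKM in NCI-H1975, against 40.1 and 58.2 FPKM in HCC827 (1.35 ± 0.24). FOXM1, a transcription factor of mitotic genes, was lower instead, at 53.4 and 25.1 FPKM in NCI-H1975, against 96.0 and 53.5 FPKM in HCC827 (-0.95 ± 0.15). The list therefore held a clear exception, and TOP2A was not called (-0.23 ± 0.19). Of the cell cycle and tumour suppressor list 10 of 33 were higher and 7 lower (2 and 6 with no filter). The main counts lie near the shares over all genes, 30.1% higher and 19.7% lower.

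Dynein and autophagy genes, the subject of the study's title, differed modestly between the control libraries. DYNC1LI1, which encodes LIC1, was at 21.4 and 23.7 FPKM in NCI-H1975, against 13.6 and 16.3 FPKM in HCC827 (0.56 ± 0.14, adjusted p = 0.0154). The paralog DYNC1LI2 was at 43.9 and 27.1 FPKM in NCI-H1975, against 58.9 and 36.2 FPKM in HCC827 (-0.41 ± 0.14, adjusted p = 0.0505). The heavy chain DYNC1H1 was at 34.9 and 27.0 FPKM in NCI-H1975, against 19.6 and 14.3 FPKM in HCC827 (0.84 ± 0.14). LIC1 and the heavy chain were thus each higher in both pairs. The dynein list as a whole had 4 of 12 tested members higher and 2 lower, near the 30.1% and 19.7% over all genes. The light chain DYNLT3 differed most (2.13 ± 0.16), and the dynein regulator NDE1 was lower (-1.11 ± 0.14).

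Of 43 tested autophagy genes 20 were higher in NCI-H1975 and 5 lower, with a median of 0.28. In the treated pairs the list's median was 0.02, against 0.10 over all genes. OPTN, a receptor for mitochondria and bacteria, was at 9.88 and 18.8 FPKM in NCI-H1975, against 2.04 and 2.69 FPKM in HCC827 (2.13 ± 0.18, adjusted p = 0.000322). ATG12, part of the conjugation system, was at 24.5 and 29.1 FPKM in NCI-H1975, against 9.07 and 12.5 FPKM in HCC827 (1.25 ± 0.14, adjusted p = 0.000918). GABARAPL1, an ATG8 family member, was at 4.61 and 7.06 FPKM in NCI-H1975, against 12.4 and 25.5 FPKM in HCC827 (-1.49 ± 0.16). The first 2 were higher and the last lower in each pair. SQSTM1, the receptor p62, was higher in the controls (0.78 ± 0.20, adjusted p = 0.0191) and not in the treated pairs (0.04 ± 0.27), and MAP1LC3B likewise (0.86 ± 0.14, against -0.06 ± 0.26 in the treated pairs). In all 10 of the 20 higher members and 1 of the 5 lower were called in the treated pairs.

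**Figure D5:**
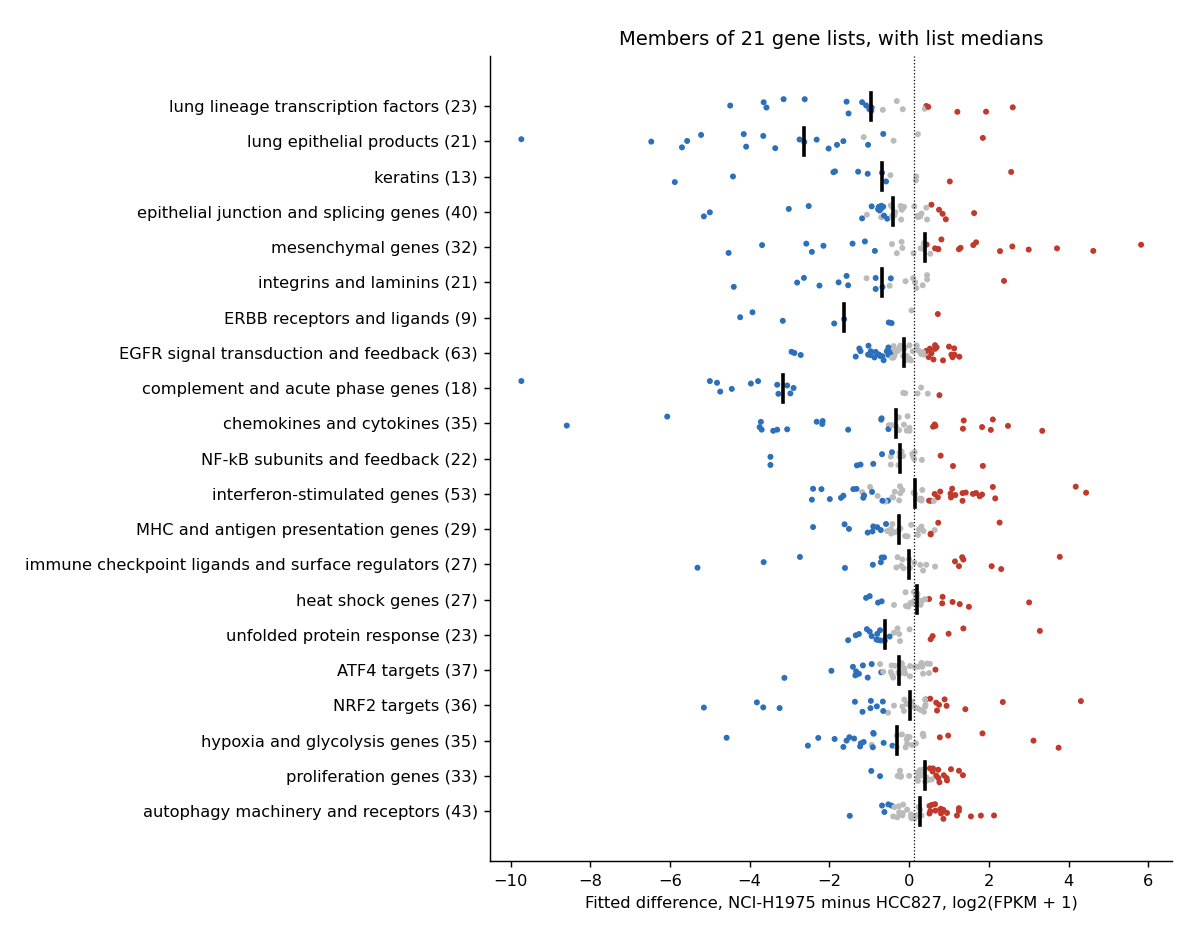
Difference (NCI-H1975 minus HCC827, log2(FPKM + 1)) of the tested members of 21 gene lists, 1 point per gene, red for called higher, blue for called lower and grey for not called, with a black bar at the list's median, the number of tested members in brackets and a dotted line at the median of all genes, 0.13. Genes listed at 0 in both libraries of a line are not drawn. The complement list has its median at -3.17 and the lung product list at -2.63, and most stress lists lie around the dotted line.

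Differences also followed position along chromosomes. Of 918 tested genes on chromosome 19, 43.9% were higher in NCI-H1975, and among the 217 zinc finger genes of the ZNF series there 163 (75.1%) were higher and 4 lower, with a median of 0.90. Of 223 ZNF genes elsewhere 53 (23.8%) were higher, and of the 701 other genes of chromosome 19 240 (34.2%) were higher. The treated pairs called 149 of the 163 again and gave a median of 0.94. ZNF85, a repressor-type zinc finger gene, was at 27.8 and 30.2 FPKM in NCI-H1975, against 3.42 and 3.52 FPKM in HCC827 (2.74 ± 0.13, adjusted p = 4.74e-05). In running windows of 25 neighbouring tested genes the highest median was 1.85, from ZNF253 to ZNF675, where 24 of 25 genes were called higher. Unbroken runs of at least 4 neighbours, each at least 2-fold apart in both pairs, numbered 20 higher and 10 lower. The longest was 25 genes from ZNF649 to ZNF888, 24 of them ZNF genes, at chr19:51889224-52923481 (GRCh38). Zinc finger genes of these clusters share sequence, and how the authors' counting treated reads shared between copies is not given in the sources used here.

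Other stretches lay on chromosome 8, where 18 of 25 genes from ZFAND1 to GEM were higher (median 1.5), and on chromosome 11, where 23 of 25 from C11orf80 to NUDT8 were higher (median 1.33). The lowest were on the X chromosome, from RPL36A to NUP62CL (median -1.52, 17 of 25 lower), on chromosome 12, from USP5 to M6PR (median -1.05, 21 lower and 1 higher), and on chromosome 1, from CITED4 to KDM4A (median -0.94, 21 lower). TPI1, a glycolytic enzyme of the chromosome 12 stretch, was at 819 and 1243 FPKM in NCI-H1975, against 2111 and 4249 FPKM in HCC827 (-1.57 ± 0.27, adjusted p = 0.00437). GAPDH, which lies on chromosome 12 outside that stretch, was at 3939 and 4737 FPKM in NCI-H1975, against 5498 and 12483 FPKM in HCC827. It was not called (adjusted p = 0.081). By whole chromosome, the share of genes higher in NCI-H1975 was largest on chromosome 10 (60.8%) and chromosome 22 (56.8%), and the share lower was largest on chromosome 12 (39.1%), against 30.1% and 19.7% over all genes.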

How the data were processed

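Total RNA extracted with Trizol was made into Illumina TruSeq libraries, per the labels' protocols, and the values in both tables are FPKM computed by the authors, per the file headers, to 2 decimals. The submitters' processing notes name Bowtie 0.12.2, GRCh38.p12 and the mouse build mm8 without a role; how fragments were quantified, on which annotation and strand, is not given in the sources used here. No counts were used, so depth and counting error are unknown.

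Genes complete in both tables (16426) were kept where at least 1 control library reached 1 FPKM (12059). log2(FPKM + 1) was fitted with limma 3.58.1 in R 4.3.3, with a variance trend, the line as the term and the experiment as a block, because the 2 tables were made separately; the tests were two-sided with Benjamini-Hochberg adjustment. The block follows the tables and not numbers in the labels. The 8 treated libraries were fitted in the same way, with treatment as the block. Positions come from GENCODE 29 (98.6% of gene names matched) and promoters from RefSeq. Tables were handled with Python 3.11.15, pandas 2.3.3 and numpy 2.4.6.

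Named genes were the 10 per direction past the threshold with the largest smaller difference over the pairs, core members of 33 lists, up to 6 called and up to 3 abundant members per list, the genes nearest EGFR and genes of the stretches. Further members of the lists, the genes beside CDK4 and the ends of runs were named after their values were seen. The members and lists were chosen with earlier results of these data known. Y-linked genes and XIST were left out, and some results are not reported here. Alternatives were the pseudocount, the filter, 2 scalings, the variance trend, the block, single pairs, other pairs, windows and a transcript length correction, the last of them and the runs of neighbours being added after seeing the data.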

Additional observations from a re-analysis of the deposited data

Results flagged for a closer look

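For 2 genes the difference between lines pointed in opposite directions in the 2 control pairs by at least 2-fold each way, and the difference between the pairs was not tested. EIF3CL was at 6.58 and 0.09 FPKM in NCI-H1975, against 1.80 and 1.79 FPKM in HCC827, which gave 1.44 in the DMSO pair and -1.36 in the siCON pair. It is a near-identical copy of the translation initiation gene EIF3C, which was at 237 and 245 FPKM in NCI-H1975, against 118 and 158 FPKM in HCC827 (0.81 ± 0.18, limma adjusted p = 0.0122), so the level of the copy is uncertain. JDP2, a repressor that pairs with JUN, was at 6.22 and 6.44 FPKM in NCI-H1975, against 14.1 and 2.24 FPKM in HCC827, which gave -1.06 in the DMSO pair and 1.20 in the siCON pair. The NCI-H1975 libraries were alike for JDP2 and the HCC827 libraries were not.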

How the results depend on the processing

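The calls depended most on the filter and the block. With no filter on low values 1775 genes were higher and 1148 lower in NCI-H1975, with 1555 and 1045 shared with the treated pairs. Without the replicate block of experiment, which pairs the libraries of one table, 1265 were higher and 931 lower, with 1091 and 841 shared. The cause was not tested. The other settings gave from 2853 (quantile normalization) to 4546 (all 6 pairs) higher genes and from 2277 (FPKM of at least 1 in 2 libraries) to 3112 (all 6 pairs) lower genes. Asking for 2-fold in every pair left 547 higher and 457 lower genes over all 6 pairs and 599 and 495 over the 4 treated pairs, which must pass in more pairs. Single control pairs gave 1393 to 1527 higher and 951 to 1194 lower genes. The median near EGFR was -1.14 within 5 Mb, -1.33 within 2 Mb, with a pseudocount of 0.1 and with the stricter filter, -1.27 after quantile normalization, -1.02 in the treated pairs, and 0.08 within 10 Mb, where the sign turned. Over 51 neighbouring genes the running median peaked at 1.52 on chromosome 19 and reached -0.80 on the X chromosome. Of 334 named genes 263 were called. Calls were lost for 77 of them with no filter, for 56 without the block and for 19 in the treated pairs. The treated pairs turned the sign of 5 called genes, HBEGF (-0.15), HLA-DRA (0.40, and 0.03 over all 6 pairs), IL6 (-0.01), MAP1LC3B (-0.06) and XAGE1A (0.20). They also called several named genes that the controls did not, among them ASNS (0.43), CD74 (0.97), DYNLL1 (0.67) and SPRR1B (-1.59). Small differences of genes near 0 FPKM cannot be resolved without depth.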

Other observations

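Drug and aldehyde metabolism genes differed in both directions, with 13 of 22 tested members higher in NCI-H1975 and 8 lower. GSTP1, a glutathione transferase, was at 1384 and 2046 FPKM in NCI-H1975, against 339 and 665 FPKM in HCC827 (1.82 ± 0.24, limma adjusted p = 0.0016). ABCG2, a drug efflux pump, was at 17.6 and 15.7 FPKM in NCI-H1975, against 1.19 and 0.86 FPKM in HCC827 (3.12 ± 0.14, limma adjusted p = 3.67e-05). GSTT1, a second glutathione transferase, was at 0.05 and 0 FPKM in NCI-H1975, against 12.8 and 20.8 FPKM in HCC827 (-4.08 ± 0.21, limma adjusted p = 4.97e-05). GSTO2 (3.63 ± 0.14) and ALDH3B1 (2.19 ± 0.18) were higher and NNMT (-3.82 ± 0.73) and CYP24A1, which inactivates vitamin D (-2.89 ± 0.16), were lower.

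Several gene families lay at one end of the range; they were picked after their values were seen. Of 6 tested HOXB genes, which pattern the body axis, 5 were lower in NCI-H1975, and HOXB7 was at 0.22 and 0.25 FPKM in NCI-H1975, against 14.8 and 13.95 FPKM in HCC827 (-3.64 ± 0.15, limma adjusted p = 2.7e-05). Of 11 tested ARMCX, BEX and TCEAL genes of the X chromosome 8 were lower and none was higher. All 4 tested APOBEC3 cytidine deaminases were higher, and APOBEC3B was at 52.5 and 124 FPKM in NCI-H1975, against 10.5 and 14.5 FPKM in HCC827 (2.62 ± 0.21), with a smaller difference in the treated pairs (0.77 ± 0.23). The imprinted gene SNRPN was at 17.8 and 16.9 FPKM in NCI-H1975, against 0.19 and 0.14 FPKM in HCC827 (3.98 ± 0.15, limma adjusted p = 2.1e-05), and the overlapping SNURF was at 20.6 and 22.5 FPKM in NCI-H1975 and listed at 0 in HCC827. MTRNR2L2, a nuclear copy of mitochondrial sequence with near-identical relatives, was at 1633 and 2498 FPKM in NCI-H1975, against 10633 and 2597 FPKM in HCC827, so its gap lay in the DMSO pair.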
